A study of Mus musculus with 7 samples.

Results

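The genes described here are those of transforming growth factor beta (TGF-beta) and bone morphogenetic protein (BMP) signalling, measured by RNA sequencing in mouse glomeruli, the filtering tufts of the kidney. Members were every symbol starting with Tgfb, Smad, Bmp, Acvr, Ltbp, Inhb or Gdf and followed by a digit or lower-case letter, together with Ldlrad4, Pmepa1, Smurf1, Smurf2, Ski, Skil and Eng. The rule gave 46 genes of the 12958 symbols in the deposited tables. Symbols of the family that the tables do not list are not analysed here.

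The knockdown group (n = 3 libraries) came from mice carrying an siRNA transgene against Shroom3, which encodes an actin-binding protein, and the control group (n = 4 libraries) from littermates that lacked the transgene. All mice were BALB-C males aged 14 weeks, and all were given doxycycline with their food and their water from 8 weeks of age on, for 6 weeks, so both groups had the drug. The promoter that drives the transgene is not stated in the sources used here. The comparison asks which transcripts differ in glomeruli after Shroom3 knockdown. Glomeruli were separated with perfused magnetic beads and sieving. The values are a log-scale expression level per gene, read as log2, and fold changes are differences of group means, knockdown minus control. Levels of different genes are not compared with each other, since correction for gene length is not known.

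Ligands of this family are secreted dimers. They bring together type II and type I receptor kinases, the type II receptor phosphorylates the type I receptor, and the type I receptor phosphorylates the receptor-activated SMADs. Those SMADs join Smad4 and act on genes in the nucleus. The TGF-beta and activin branch mainly uses Smad2 and Smad3, and the BMP branch mainly uses Smad1, Smad5 and Smad9. Inhibitory SMADs, SMURF ubiquitin ligases, SKI proteins and the membrane proteins encoded by Pmepa1 and Ldlrad4 restrain the pathway. In glomeruli, TGF-beta is known chiefly for its part in matrix build-up and podocyte loss in scarring.

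Several facts of the whole series bear on these genes. Shroom3, the targeted gene, was not detectably lower by transcript (log2 fold change -0.19, SE 0.11; Benjamini-Hochberg adjusted p of 0.417 in limma), so the groups are named as labelled. Titles came in 2 styles, G for 5 libraries (2 knockdown, 3 control) and CB6 for 2 libraries (1 of each group), and the labels do not say what the styles mark. Across genes, which are not independent, the CB6 knockdown library and the CB6 control library departed from their group means in opposite ways (correlation -0.958). If values were adjusted for title style before deposit, the fit of the groups alone counts 1 residual degree of freedom too many and its p-values are too small. Results with title style as a covariate are therefore given beside the calls. All 18 podocyte markers and all 14 glomerular endothelial markers were measured, and so were all 16 markers of the proximal tubule, which lies outside the glomerulus. Of all genes tested 3.02% were called, and the marker lists set beside that share were chosen with earlier results of these data known. Of the podocyte markers 4 of 18 fell and none rose (median log2 fold change -0.23), with 2 calls under the title-style covariate, and 0 when only libraries titled G were used. Of the proximal tubule markers 7 of 16 fell and 1 rose (median -0.39), with 7 calls under title style and 3 in the libraries titled G. These markers did not move as 1 set, with 14 negative and 2 positive. Cyp2e1 was at -3.26, Slc22a12 at -2.26 and Kap at -2.19, while Aqp1 was at -0.002, Hnf4a at -0.06, Slc5a12 at 0.07 and Pck1 at 1.49. Of the distal nephron markers 3 of 14 rose (median 0.21), with 1 call under title style and 0 in the libraries titled G. In bulk RNA, fewer cells of a type and less RNA per cell cannot be told apart.

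In this pathway 3 of 46 genes rose in knockdown glomeruli and none fell. Ldlrad4, which encodes a membrane protein that restrains TGF-beta signalling, rose about 2-fold (95% CI 1.79 to 2.23). Tgfbr1, the type I TGF-beta receptor, rose 1.28-fold, and Bmp1, a procollagen-processing protease named with the BMPs, rose 1.37-fold. The other members did not pass the test (limma, Benjamini-Hochberg adjusted p from 0.068 upwards). The 3 calls are 6.52% of the members, where 3.02% of all genes tested were called, and all 3 were higher in knockdown, a call made for 0.996% of all genes, while 2.02% of all genes were called lower. With title style as a covariate 2 members passed, Ldlrad4 and Tgfbr1, where 1.47% of all genes passed (0.34% higher and 1.13% lower). In the libraries titled G alone Ldlrad4 passed, where 0.309% of all genes passed. The median log2 fold change was 0.003 over the 46 members, against 0.02 over all genes, with 24 members positive and 22 negative. Whether the family stands apart from other genes was not tested, and its members were chosen with earlier results of these data known.

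**Figure D1:**
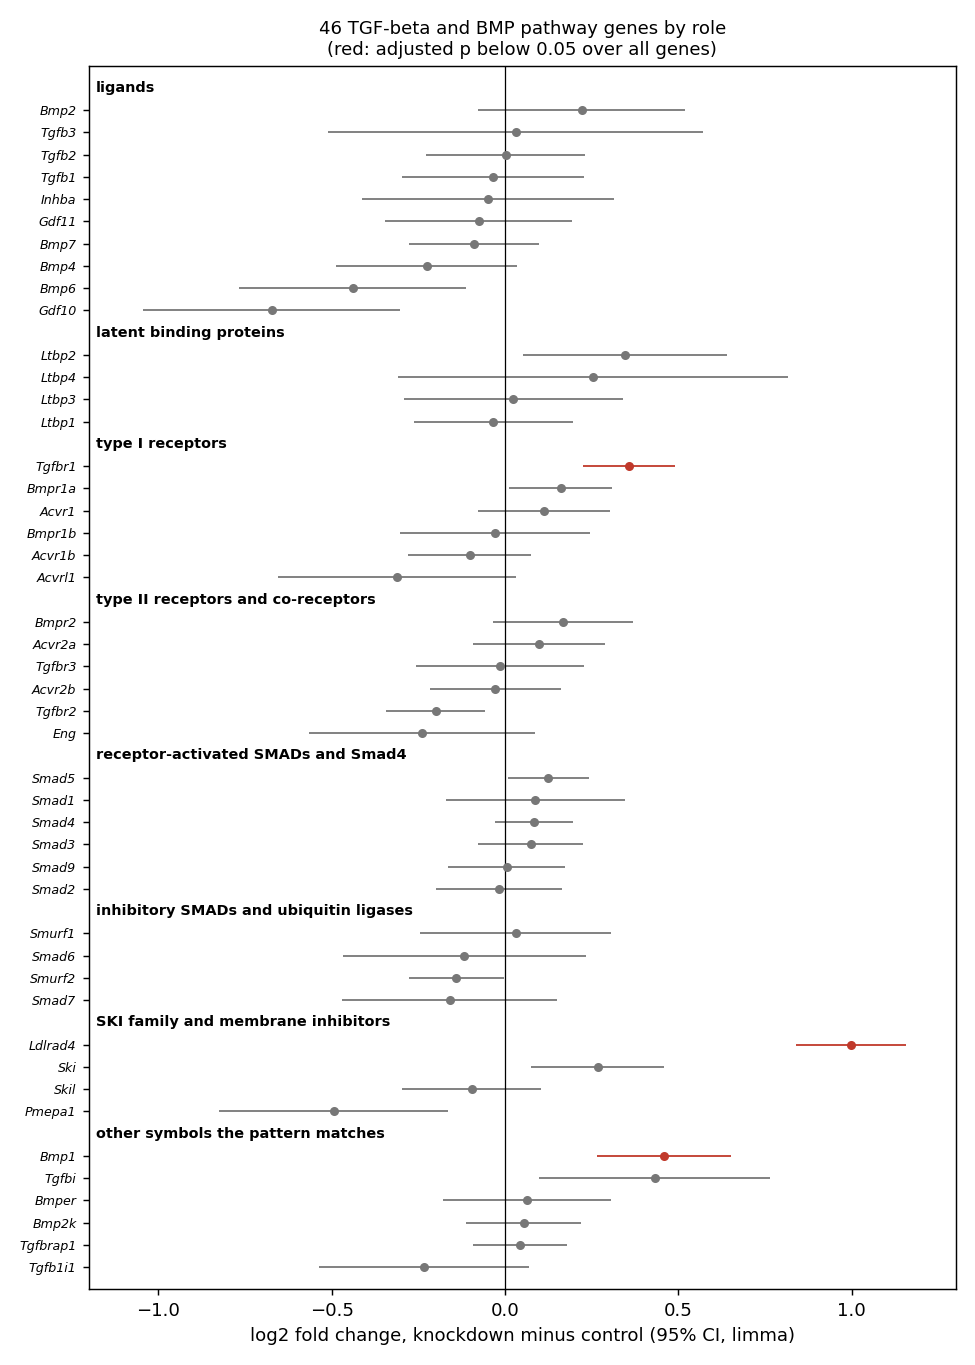
Log2 fold change of each of the 46 genes, knockdown minus control, with its 95% confidence interval from limma, grouped by role. Ldlrad4 (0.999), Bmp1 (0.46) and Tgfbr1 (0.36), in red, passed the adjusted threshold of 0.05, and Gdf10 (-0.67) had the most negative value.

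The restraining proteins of the membrane and nucleus held the largest difference. Ldlrad4 lies on chromosome 18 (ENSMUSG00000024544.9; GRCm38, 67933257 to 68268630, plus strand). It encodes a relative of the Pmepa1 product and is known from cultured cells to keep SMAD2 and SMAD3 from the activated receptor. Its log2 expression was 10.83, 10.86 and 10.65 in the knockdown libraries and 9.78, 9.73, 9.86 and 9.76 in the control libraries. The knockdown libraries all lay above the control libraries, with a gap of 0.79 between the nearest of them, and the lowest knockdown value was that of the CB6 library. Knockdown averaged 10.78 ± 0.11 (SD, n = 3), and control averaged 9.78 ± 0.06 (SD, n = 4). On the log2 scale the fold change was 0.999 (SE 0.07, 95% CI 0.84 to 1.16; Benjamini-Hochberg adjusted p of 0.000395 in limma), and the adjusted p was 0.0012 with title style as a covariate. With 35 splits of 7 libraries, the two-sided exact permutation p of 0.0286 is the smallest the design allows. It was taken for called members only and can arise only where groups do not overlap, as in 18.4% of all genes. It therefore adds no separate support to the calls. By unadjusted p in limma Ldlrad4 ranked 9 of 12958 genes. The difference was 1.06 within the libraries titled G and 0.89 within the CB6 pair.

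Part of the Ldlrad4 gene overlaps Fam210a on the other strand, and the use of strand in counting is not given in the sources used here. This overlap takes up 52.1% of the exon bases annotated for Ldlrad4 (2798 of 5371), all in its non-coding transcript. The coding transcript, 67933257 to 68255551, shares 0 bases with Fam210a. Fam210a itself (68260187 to 68300333, minus strand) was at 12.28, 12.20 and 12.21 in the knockdown libraries and at 12.01, 12.25, 12.18 and 12.16 in the control libraries. Those groups overlapped, the log2 fold change being 0.08 (SE 0.06; Benjamini-Hochberg adjusted p of 0.563 in limma). Which transcript of Ldlrad4 the reads came from was not tested. Of the 15 measured genes within 1 Mb of Ldlrad4, Fam210a among them, none passed, beside 3.02% of all genes. Their log2 fold changes ran from -0.11 to 0.22.

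Pmepa1, a TGF-beta-induced gene whose product binds SMADs and ubiquitin ligases, ran the other way without passing the test. It had 9.67, 9.78 and 10.12 in the knockdown libraries and 10.25, 10.30, 10.70 and 10.17 in the control libraries. The groups did not overlap, but the CB6 knockdown library came within 0.05 of the CB6 control library. The log2 fold change was -0.49 (SE 0.15; Benjamini-Hochberg adjusted p of 0.114 in limma), and it was -0.69 in the libraries titled G alone against -0.05 in the CB6 pair. Ski and Skil encode nuclear corepressors that bind SMAD complexes. Ski had 12.33, 12.34 and 12.27 in the knockdown libraries and 12.07, 11.84, 12.22 and 12.05 in the control libraries, which did not overlap by a margin of 0.05. Its log2 fold change of 0.27 (SE 0.08) did not pass (Benjamini-Hochberg adjusted p of 0.138 in limma). Skil differed by -0.10 (95% CI -0.30 to 0.11).

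**Figure D2:**
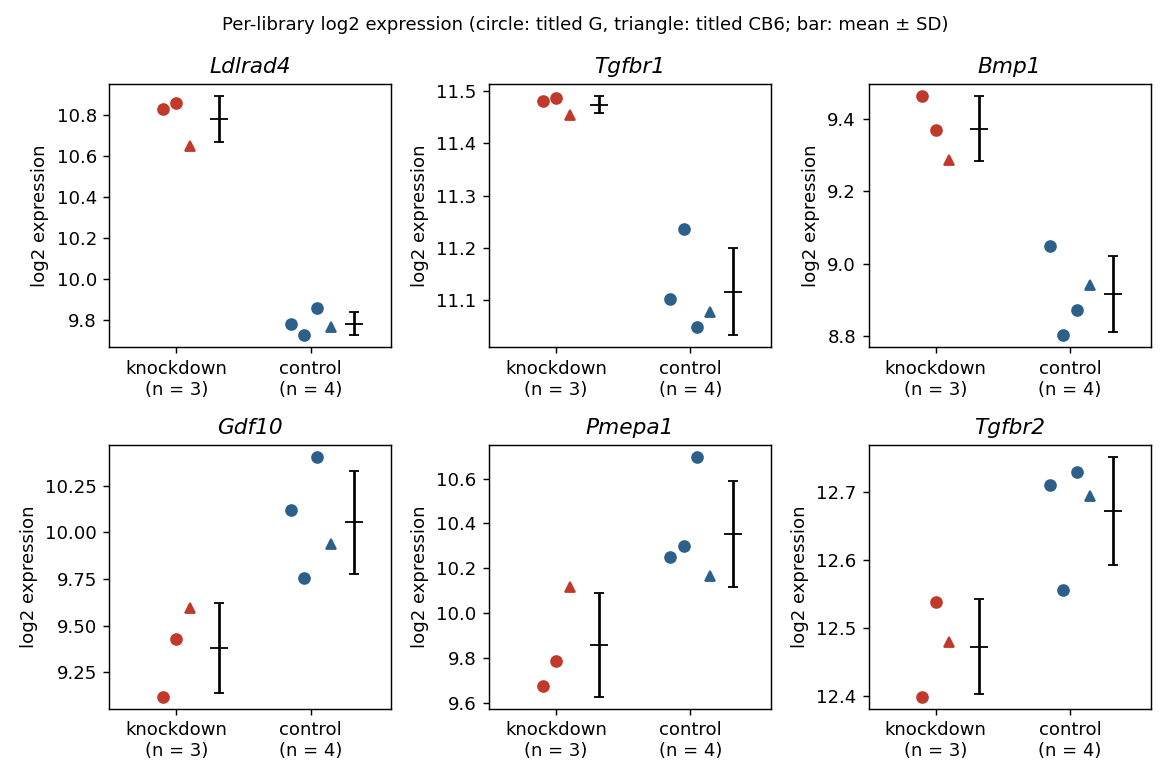
Log2 expression per library of 6 pathway genes, knockdown to the left of control, with circles for libraries titled G, triangles for those titled CB6, and bars for the mean and SD. Groups do not overlap in any of the 6, which were picked for display. The same held for 10 of the 46 members (21.7%) and for 18.4% of all genes. Of the 6 shown, Ldlrad4, Tgfbr1 and Bmp1 passed the test, and the gap for Pmepa1 is 0.05.

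Among the 6 type I receptors, Tgfbr1 rose and the other 5 did not pass. Tgfbr1 (ENSMUSG00000007613.15; GRCm38 chromosome 4, 47353222 to 47414931, plus strand) encodes the kinase that TGF-beta uses to phosphorylate Smad2 and Smad3. It was at 11.48, 11.49 and 11.46 in the knockdown libraries and at 11.10, 11.24, 11.05 and 11.08 in the control libraries. The knockdown libraries lay close together, and control replicate 2 was the nearest control. Knockdown averaged 11.47 ± 0.02 (SD, n = 3), and control averaged 11.12 ± 0.08 (SD, n = 4). Its log2 fold change was 0.36 (SE 0.06, 95% CI 0.23 to 0.49; Benjamini-Hochberg adjusted p of 0.0169 in limma). With title style as a covariate the adjusted p was 0.048, and in the libraries titled G alone 0.229 at a log2 fold change of 0.36. The CB6 pair differed by 0.38. The exact permutation p was 0.0286, the smallest possible. The call ended without any 1 of the 3 knockdown libraries (adjusted p of 0.0622, 0.09 and 0.0771) and without control replicate 4 (0.071), with log2 fold changes from 0.35 to 0.37. None of 14 measured genes within 1 Mb passed, beside 3.02% of all genes, and their log2 fold changes ran from -1.27 to 0.37.

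The other type I receptors had small differences. Bmpr1a, a BMP receptor, had a log2 fold change of 0.16 (95% CI 0.01 to 0.31), and Acvr1, another BMP-branch receptor, 0.11 (95% CI -0.08 to 0.30). Acvr1b, the activin receptor, differed by -0.10 and Bmpr1b by -0.03. Acvrl1 encodes ALK1, a receptor of endothelial cells for BMP9 and BMP10, and had 10.39, 10.65 and 10.73 in the knockdown libraries and 10.98, 10.57, 11.24 and 10.80 in the control libraries. Those groups overlapped through control replicate 2, and the log2 fold change of -0.31 (SE 0.15) did not pass (Benjamini-Hochberg adjusted p of 0.313 in limma).

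Type II receptors and co-receptors gave no call. Tgfbr2, the type II partner of Tgfbr1, was at 12.40, 12.54 and 12.48 in the knockdown libraries and at 12.71, 12.56, 12.73 and 12.69 in the control libraries. The groups were parted by 0.02 alone, and the log2 fold change of -0.20 (SE 0.06) did not pass (Benjamini-Hochberg adjusted p of 0.134 in limma). Taken within each library, the log2 difference Tgfbr1 minus Tgfbr2 was -0.92, -1.05 and -1.03 in knockdown and -1.61, -1.32, -1.68 and -1.62 in control. That is a shift of 0.56 between the group means, described without a test because the pair was chosen after its values were seen. Bmpr2, the BMP type II receptor, differed by 0.17 (95% CI -0.03 to 0.37) and the activin type II receptors Acvr2a and Acvr2b by 0.10 and -0.03. Tgfbr3, which encodes the co-receptor betaglycan, differed by -0.01 (95% CI -0.26 to 0.23).

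Eng encodes endoglin, the endothelial co-receptor that works with ALK1. It had 11.25, 11.52 and 11.60 in the knockdown libraries and 11.73, 11.42, 12.03 and 11.59 in the control libraries. The groups overlapped, the log2 fold change being -0.24 (SE 0.14; Benjamini-Hochberg adjusted p of 0.419 in limma). In the libraries titled G alone Eng differed by -0.34, and in the CB6 pair by 0.01. Of the 14 glomerular endothelial markers, 12 were also negative, with a median of -0.22, none past the threshold. Their mean log2 level ran from 11.37 to 11.60 over the knockdown libraries and from 11.46 to 11.90 over the control libraries, control replicate 2 being the lowest control, as it was for Eng and Acvrl1. The part of endothelial RNA content in the values of Eng, Acvrl1 and Tgfbr2 was not tested.

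**Figure D3:**
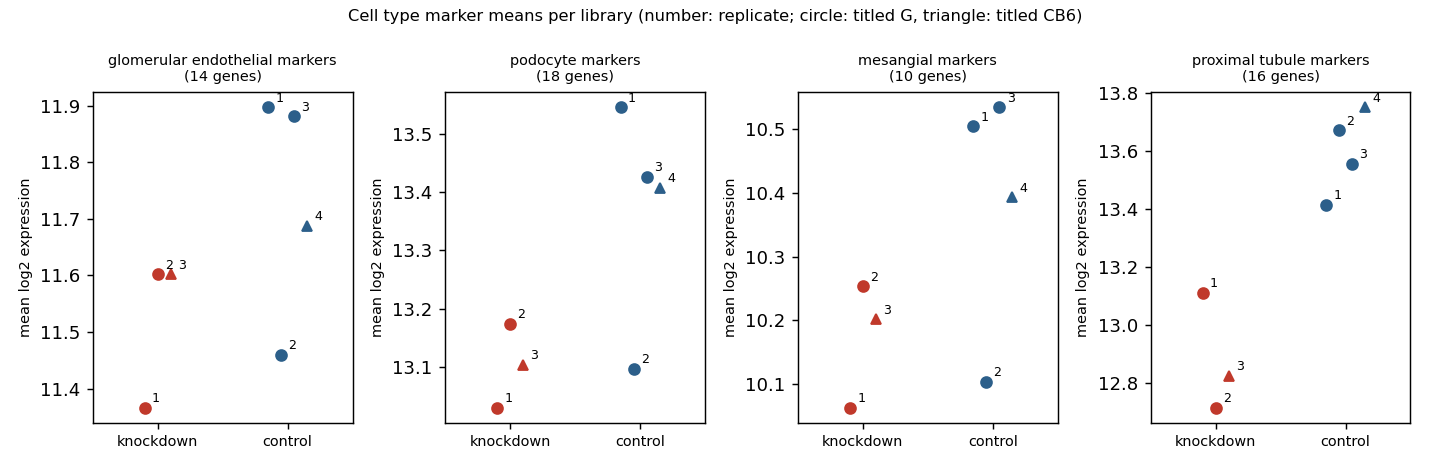
Mean log2 expression of 4 cell type marker lists in each library, knockdown to the left of control, with the replicate number beside each point. Control replicate 2 is the lowest control for the endothelial (11.46), podocyte (13.10) and mesangial (10.10) lists, while the proximal tubule means of the knockdown libraries (12.72 to 13.11) all lie under those of the controls (13.42 to 13.75).

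The bases before the start sites of the 2 TGF-beta receptor genes are shown because these genes code for partners whose values lay on opposite sides of 0, only that of Tgfbr1 past the threshold. Each sequence holds the 250 bases before the start, taken from RefSeq on GRCm38.p6 and read along the strand of the gene, at chr4:47352972-47353221 (plus strand) for Tgfbr1 and chr9:116175364-116175613 (minus strand) for Tgfbr2. For Tgfbr1, which has 2 starts in the table, the first is given. Capitals mark GGCGCC, a GC-rich motif that SMAD proteins can bind, and CAGACA, which holds the classical SMAD box, both searched on both strands.
Tgfbr1: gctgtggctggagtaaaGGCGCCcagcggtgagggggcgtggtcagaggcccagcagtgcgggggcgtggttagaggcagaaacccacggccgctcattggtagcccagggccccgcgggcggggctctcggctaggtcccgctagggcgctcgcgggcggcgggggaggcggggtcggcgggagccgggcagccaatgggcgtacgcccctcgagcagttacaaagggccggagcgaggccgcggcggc
Tgfbr2: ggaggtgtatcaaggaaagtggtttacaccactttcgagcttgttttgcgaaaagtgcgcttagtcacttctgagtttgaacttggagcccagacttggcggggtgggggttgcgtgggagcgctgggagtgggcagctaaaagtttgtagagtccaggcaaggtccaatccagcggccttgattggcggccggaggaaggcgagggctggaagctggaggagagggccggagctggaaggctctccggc
The Tgfbr1 window held 1 GGCGCC, 29 CpG dinucleotides and 74.8% G and C. The Tgfbr2 window held none of either motif, 12 CpG and 58.4% G and C. That window does hold CAGAC, followed by T, and shorter runs within CAGACA were not counted. The absence of CAGACA therefore does not show the absence of a SMAD box. GGCGCC stood in 8 of the 33 member windows in the table (24.2%) and in 16.6% of the 9985 windows of measured genes. CAGACA stood in 3 of 33 (9.09%) and in 13.1%. Median G and C content was 68.8% for members and 59.6% for measured genes, and the part of base composition in the motif shares was not tested. A match is a run of letters and does not show binding.

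The 10 ligand genes gave no call. Gdf10, a ligand of the BMP3 group, had the most negative value of the family, with 9.12, 9.43 and 9.60 in the knockdown libraries and 10.12, 9.75, 10.40 and 9.94 in the control libraries. All knockdown libraries lay under all control libraries, by 0.16 at the nearest, and control replicate 2 was the lowest control. On the log2 scale the fold change was -0.67 (SE 0.16, 95% CI -1.04 to -0.30; Benjamini-Hochberg adjusted p of 0.068 in limma). Without control replicate 2 it was -0.77 and passed (adjusted p = 0.0392). Gdf10 passed in 1 of 15 alternatives, and its adjusted p was 0.125 under title style and 0.244 in the libraries titled G alone. Gdf10 (ENSMUSG00000021943.7) lies on chromosome 14, 33923587 to 33937983. Within the libraries titled G the difference was -0.82, and within the CB6 pair -0.34.

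Bmp6, a BMP known for iron control from the liver endothelium, had 10.72, 10.83 and 10.88 in the knockdown libraries and 10.85, 11.55, 11.35 and 11.24 in the control libraries. Control replicate 1 lay within the knockdown range, and without it the log2 fold change moved to -0.57 and passed (Benjamini-Hochberg adjusted p of 0.0201 in limma). With all libraries it was -0.44 (SE 0.14; adjusted p = 0.152). Bmp6 passed in 1 of 15 alternatives, and its adjusted p was 0.245 under title style and 0.473 in the libraries titled G alone. Bmp4 differed by -0.23 (95% CI -0.49 to 0.04), Bmp2 by 0.22 (95% CI -0.08 to 0.52) and Bmp7, a BMP of kidney development, by -0.09 (95% CI -0.28 to 0.10).

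For the TGF-beta ligands themselves no difference was detectable. Tgfb1 had 7.30, 7.67 and 7.40 in the knockdown libraries and 7.41, 7.46, 7.53 and 7.57 in the control libraries, a log2 fold change of -0.04 (95% CI -0.30 to 0.23). The groups overlapped throughout. Tgfb2 differed by 0.002 (95% CI -0.23 to 0.23) and Tgfb3 by 0.03 (95% CI -0.51 to 0.57), the wide interval of Tgfb3 going with control replicate 2 at 7.15 where the other controls were at 7.93 to 8.21. Inhba, an activin subunit, differed by -0.05 and Gdf11 by -0.08.

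Latent TGF-beta binding proteins tether the inactive ligand to matrix. Ltbp2, which is a matrix protein of this family that does not hold the latent ligand, had 7.58, 7.33 and 7.33 in the knockdown libraries and 6.90, 6.98, 7.29 and 7.10 in the control libraries. The groups were parted by 0.04, and the log2 fold change of 0.35 (SE 0.13) did not pass (Benjamini-Hochberg adjusted p of 0.2 in limma). Ltbp4 varied more between animals, with a log2 fold change of 0.25 (95% CI -0.31 to 0.82), and Ltbp3 differed by 0.02 (95% CI -0.29 to 0.34). Ltbp1 is among 108 fill-in genes, whose values in the libraries titled G differ only by fixed library offsets, within 0.003, so its log2 fold change of -0.03 is not read as a measurement.

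The SMAD genes had small differences, and none passed. Smad5, of the BMP branch, had 11.73, 11.69 and 11.69 in the knockdown libraries and 11.64, 11.60, 11.50 and 11.57 in the control libraries, without overlap. Its log2 fold change of 0.12 (SE 0.05) did not pass (Benjamini-Hochberg adjusted p of 0.242 in limma). Smad1 and Smad9, of the same branch, differed by 0.09 (95% CI -0.17 to 0.35) and 0.004 (95% CI -0.17 to 0.17). Smad2 and Smad3, the substrates of the Tgfbr1 kinase, differed by -0.02 (95% CI -0.20 to 0.17) and 0.07 (95% CI -0.08 to 0.22). Smad4, the common partner, differed by 0.08 (95% CI -0.03 to 0.20). These are transcript levels, and SMAD phosphorylation was not measured in these tables.

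Feedback inhibitors of the pathway gave no call. Smad7 and Smad6 are induced by TGF-beta and BMP signalling and block the receptors. Smad7 had 9.79, 9.99 and 9.76 in the knockdown libraries and 10.18, 9.62, 10.11 and 10.12 in the control libraries, a log2 fold change of -0.16 (95% CI -0.47 to 0.15). Control replicate 2 lay under every other library, and without it the value was -0.29 and still did not pass (Benjamini-Hochberg adjusted p of 0.0932 in limma). Smad6 differed by -0.12 (95% CI -0.47 to 0.23). Smurf2, a ubiquitin ligase for receptors and SMADs, had 11.49, 11.37 and 11.50 in the knockdown libraries and 11.68, 11.51, 11.61 and 11.56 in the control libraries, that is, -0.14 on the log2 scale (SE 0.06; Benjamini-Hochberg adjusted p of 0.257 in limma). The groups were parted by 0.01. Smurf1 differed by 0.03 (95% CI -0.24 to 0.31).

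Of the 6 further genes that carry a family prefix without being ligands, receptors or SMADs, Bmp1 rose. Bmp1 (ENSMUSG00000022098.10; GRCm38 chromosome 14, 70474558 to 70520234, minus strand) encodes a metalloprotease that trims procollagens and cleaves the BMP antagonist chordin. It had 9.47, 9.37 and 9.29 in the knockdown libraries and 9.05, 8.80, 8.87 and 8.94 in the control libraries. The nearest knockdown and control values lay 0.24 apart, without overlap. Knockdown averaged 9.37 ± 0.09 (SD, n = 3), and control averaged 8.92 ± 0.11 (SD, n = 4), with a log2 fold change of 0.46 (SE 0.085, 95% CI 0.26 to 0.65; Benjamini-Hochberg adjusted p of 0.0291 in limma). With title style as a covariate Bmp1 did not pass (adjusted p = 0.0794), at the same log2 fold change of 0.46. The difference was 0.51 within the libraries titled G and 0.35 within the CB6 pair, and the exact permutation p was 0.0286. In the libraries titled G alone the adjusted p was 0.236. The call also ended without any 1 of the knockdown libraries (adjusted p of 0.101, 0.119 and 0.0804) or without control replicate 3 (0.056) or 4 (0.0971). None of 21 measured genes within 1 Mb passed, beside 3.02% of all genes, and their log2 fold changes ran from -0.66 to 0.27.

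Tgfbi, a matrix protein gene induced by TGF-beta, had 7.37, 7.71 and 7.71 in the knockdown libraries and 7.27, 6.998, 7.40 and 6.99 in the control libraries. The groups overlapped at knockdown replicate 1 and control replicate 3, and the log2 fold change of 0.43 (SE 0.15) did not pass (Benjamini-Hochberg adjusted p of 0.163 in limma). Tgfb1i1, which encodes the focal adhesion adaptor Hic-5, differed by -0.23 (95% CI -0.54 to 0.07). Bmper, a secreted BMP-binding protein gene, differed by 0.06, the kinase gene Bmp2k by 0.05 and the receptor-associated Tgfbrap1 by 0.04.

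**Figure D4:**
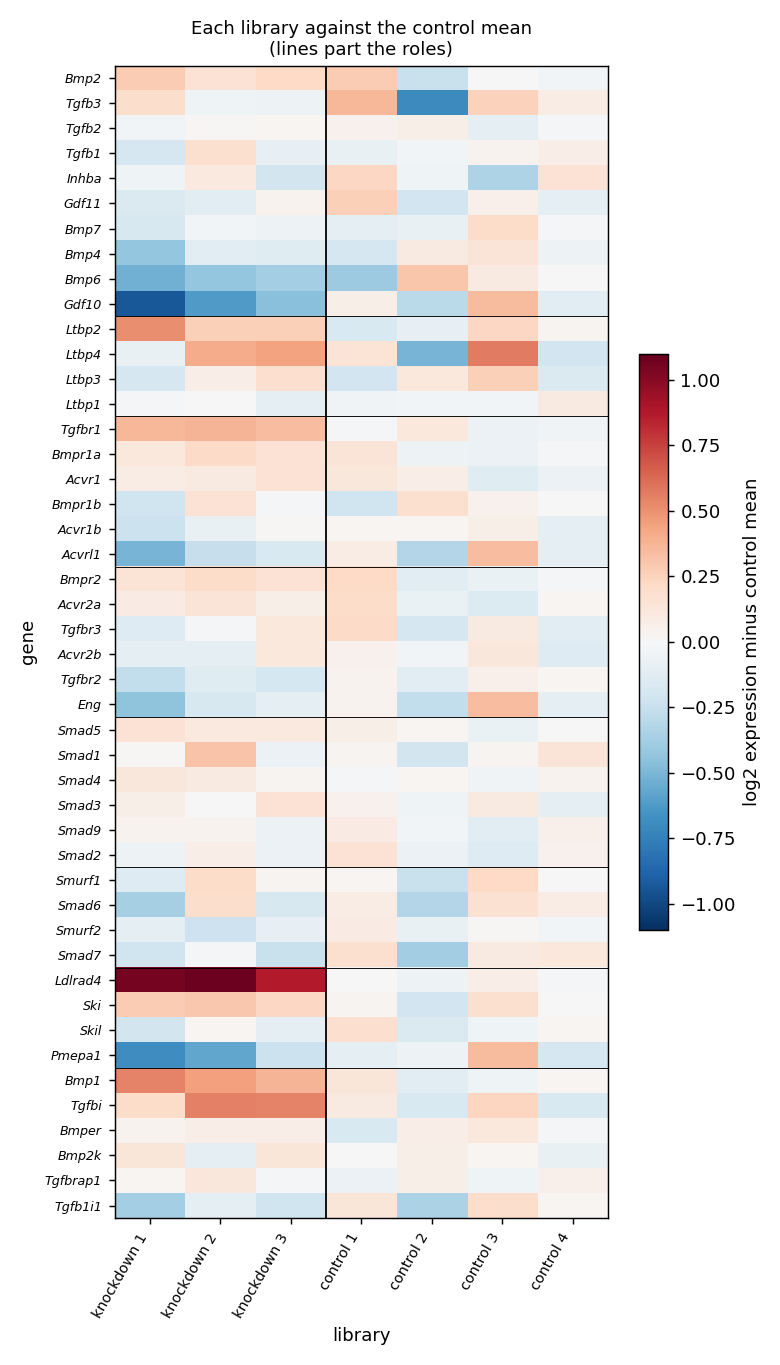
Log2 expression of each of the 46 genes in each library minus the control mean of that gene, knockdown libraries on the left, with lines between the roles. Ldlrad4 stands out in all 3 knockdown libraries, and control replicate 2 is the lowest of the controls for 20 of the 46 genes, a count not taken over all genes.

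Across the family, groups did not overlap for 10 of 46 genes, or 21.7%, beside 18.4% of all genes tested. They were higher in knockdown for 6 members and lower for 4, where 10.8% of all genes were higher and 7.55% lower without overlap. An unadjusted p under 0.05 was reached by 13 of 46 genes (28.3%), beside 18.4% of all genes. The sign of the difference within the libraries titled G was the same as within the CB6 pair for 29 of the 46 genes, and for 7652 of all 12958 genes. Control replicate 2 was the lowest of the 4 controls for 20 of the 46 genes, and control replicate 3 the highest for 20. These 2 counts were not taken over all genes, so they do not show a trait of the family.

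Genes that act with the family were counted from lists chosen with earlier results of these data known. Their shares are therefore described without a test. Of 22 ligand traps and antagonists, 10 were measured and 2 passed (20.0%, beside 3.02% of all genes), with 0 under title style as a covariate. Twsg1, which encodes a BMP-binding protein, rose to 12.04, 12.16 and 12.03 in the knockdown libraries, against 11.76 to 11.79 over the 4 control libraries, a log2 fold change of 0.29 (SE 0.05; Benjamini-Hochberg adjusted p of 0.0224 in limma). Bgn, the matrix proteoglycan biglycan that binds TGF-beta, fell to 11.81, 11.98 and 11.91 in the knockdown libraries, against 12.44, 12.14, 12.47 and 12.43 in the control libraries, a log2 fold change of -0.47 (SE 0.09; Benjamini-Hochberg adjusted p of 0.0301 in limma). Neither overlapped between groups. Both calls ended with title style as a covariate (adjusted p of 0.0707 for Twsg1 and 0.0651 for Bgn), without any 1 of the knockdown libraries, and without control replicate 4 (0.0887 for Twsg1 and 0.0992 for Bgn). That of Bgn ended too without control replicate 1 (0.0589) or 3 (0.0607). Both ended in the libraries titled G alone (0.224 for Twsg1 and 0.291 for Bgn) and without the intensity trend (0.0568 for Twsg1 and 0.0542 for Bgn). Twsg1 passed in 8 of 15 alternatives and Bgn in 6 of 15.

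Of 14 measured genes for the storage and activation of latent TGF-beta, Itgb8 fell, a share of 7.14% beside 3.02% of all genes. Itgb8 encodes the integrin beta subunit that, with alpha v, frees TGF-beta from its latent complex. It had 11.02, 10.68 and 10.80 in the knockdown libraries and 11.36, 11.49, 11.28 and 11.53 in the control libraries, without overlap. The log2 fold change was -0.58 (SE 0.09; Benjamini-Hochberg adjusted p of 0.0173 in limma), and the adjusted p was 0.0378 with title style as a covariate. The call ended without knockdown replicate 2 or 3 (adjusted p of 0.0836 and 0.0804) or control replicate 4 (0.0586), and in the libraries titled G alone (0.229). Of the podocyte markers 15 of 18 were negative, with list means of 13.03 to 13.17 over the knockdown libraries and 13.10 to 13.55 over the control libraries. Of the mesangial markers 7 of 10 were negative and 2 fell (20.0%, beside 3.02% of all genes), neither of them past the threshold under title style, with list means of 10.06 to 10.25 over the knockdown libraries and 10.10 to 10.53 over the control libraries. Control replicate 2, the lowest control in both list means (13.10 and 10.10), was at 11.49 for Itgb8, above control replicates 1 and 3. Knockdown replicate 2, the highest knockdown library in both list means (13.17 and 10.25), was the lowest for Itgb8 (10.68). Proximal tubule list means were 13.11, 12.72 and 12.83 in the knockdown libraries and 13.42, 13.67, 13.56 and 13.75 in the control libraries. Knockdown replicate 2 was the lowest library and control replicate 4 the highest both in those means and for Itgb8. The part of podocyte, mesangial and proximal tubule RNA content in the value of Itgb8 was not tested.

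Target genes of the pathway gave no call. Of 19 measured TGF-beta targets, 8 were positive and 11 negative, with a median of -0.02. An unadjusted p under 0.05 in limma was reached by 8 (42.1%, beside 18.4% of all genes). Among these, Postn (-0.70), Col1a2 (-0.47), Vim (-0.43), Col4a1 (-0.33), Ctgf (-0.32) and Col4a2 (-0.30) were lower in knockdown, and Col3a1 (0.30) and Snai1 (0.58) higher. None of the 19 passed the adjusted threshold. Closest were Col1a2, a fibrillar collagen chain, with 10.61, 10.47 and 10.53 in the knockdown libraries and 11.13, 10.69, 11.13 and 11.08 in the control libraries (log2 fold change -0.47), and Vim, the filament protein vimentin, with a log2 fold change of -0.43. Their adjusted p were 0.0594 and 0.0596 (limma, Benjamini-Hochberg). Both passed without control replicate 2 (0.00468 and 0.0112), the control with the lowest value of each, with the fill-in genes described above left out (0.0493 for each) and among the genes of higher mean expression alone (0.0441 for each). Vim also passed with quantile normalization (0.0497). Col1a2 passed in 3 of 15 alternatives and Vim in 4 of 15. Neither passed under title style (0.116 and 0.117) or in the libraries titled G alone (0.39 and 0.319). The part of podocyte and mesangial RNA content in the values of the TGF-beta targets was not tested. The 7 measured BMP targets had a median of -0.01, 3 positive and 4 negative, and none reached an unadjusted p under 0.05. Id3 and Id4, inhibitors of helix-loop-helix factors, differed by -0.25 and 0.14.

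The remaining lists gave no call either. Among 14 ubiquitin ligases, deubiquitinases and phosphatases of the pathway, 11 were positive with a median of 0.10, where 7276 of all 12958 genes were positive. An unadjusted p under 0.05 in limma was reached by 5 of the 14 (35.7%, beside 18.4% of all genes). Groups did not overlap for 5 of them (35.7%, beside 18.4%). Wwp1 and Rnf111, ligases that act on SMADs or their regulators, differed by -0.23 and 0.18. Among 10 other ligands, co-receptors and receptor partners, Rgmb, a BMP co-receptor, had 8.70, 8.63 and 8.46 in the knockdown libraries and 8.24, 7.98, 8.09 and 8.20 in the control libraries. Its groups did not overlap, and it did not pass (log2 fold change 0.46; Benjamini-Hochberg adjusted p of 0.0525 in limma). It passed in 3 of 14 alternatives, with quantile normalization (0.0496), without the intensity trend (0.0469) and without the fill-in genes (0.0429), and its adjusted p was 0.129 under title style. Bambi, a decoy receptor, differed by -0.38 (adjusted p = 0.302). The 14 nuclear partners had a median of 0.06, with Crebbp and Ep300, acetyltransferases that work with SMADs, at 0.17 and 0.11. The 8 genes of the TAK1 branch had a median of 0.06, with the kinase Mapk14 at -0.19 and the adaptor Tab3 at 0.13.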

How the data were processed

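Poly-A RNA that was also depleted of ribosomal RNA was sequenced, as the labels state. Alignment used BWA and mm10, per the submitters' processing notes. For counting, strand, normalization and log base the sources used here give nothing. The authors deposited log-scale values for each library, read as log2 (2.32 to 17.2, library medians 9.15 to 9.16). Without counts, depth and counting error are unknown. Symbols were matched to GENCODE M21 on GRCm38, the build of mm10, which held all 46 members.

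Groups were compared with limma 3.58.1 (R 4.3.3, intensity trend) on all 12958 symbols of 7 libraries, knockdown minus control, with Benjamini-Hochberg adjustment over all of them and a threshold of 0.05. A low-value filter removed 0 genes, so the alternative without it repeats the main fit in every count of alternatives. The code was tested on simulated data. Each library stands for 1 animal, as the series' design text counts them. Alternatives were other scalings, filters and thresholds, no trend, title style as a covariate, libraries titled G alone, each library left out and fill-in genes left out. Genes named are the calls, the 4 smallest p and the 2 highest means per role, and of each list up to 4 calls or else the 2 smallest p. The other 12 members are given to account for every member. Fam210a, the neighbours within 1 Mb, the receptor pair and the promoter motifs were chosen after values were seen. Members and lists were chosen with earlier results of these data known.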

Additional observations from a re-analysis of the deposited data

Results flagged for a closer look

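Among the 4 control libraries, 2 of the 46 genes had 1 library far from the others by Dixon's test, where chance flags about 1 gene in 20. Smad7 was at 9.62 in control replicate 2, while the other controls held 10.11 to 10.18, a gap of 0.868 of the whole range. Ltbp1 was at 5.35 in control replicate 4, while the other controls held 5.211 to 5.215, a gap of 0.972 of the whole range. Ltbp1 is one of the genes with fixed offsets in the libraries titled G, and control replicate 4 is titled CB6.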

How the results depend on the processing

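Ldlrad4 passed in all 15 alternatives (log2 fold change 0.96 to 1.06, adjusted p from 0.000172 to 0.0133), Tgfbr1 in 10 of 15 (adjusted p from 0.0077 to 0.229), Bmp1 in 7 of 14 (adjusted p from 0.0228 to 0.236) and Itgb8 in 11 of 15 (adjusted p from 0.0107 to 0.229) (limma, Benjamini-Hochberg). Each of these counts includes the fit without the low-value filter, which repeats the main fit and adds no support. Members past the threshold numbered 1 to 4 with a library left out (1 to 3 higher, 0 to 1 lower), 1 in the libraries titled G alone (1 higher), 1 at a threshold of 0.01 (1 higher) and, at 0.1, 1 lower besides 3 higher. Over all genes 391 passed, 134 to 480 with a library left out (31 to 163 higher, 103 to 317 lower), 191 with title style as a covariate (44 higher, 147 lower), 40 in the libraries titled G alone (14 higher, 26 lower), 846 at 0.1 (348 higher, 498 lower) and 124 at 0.01 (28 higher, 96 lower). Signs turned for 16 members, none of them past the threshold on either side. In the libraries titled G alone Bmp2k was at -0.012, Inhba at 0.0814, Ltbp1 at 0.0306, Ltbp3 at -0.109, Smad2 at 0.0246, Tgfb1 at 0.0197 and Tgfb2 at -0.0103. With median scaling Smad9 was at -0.00163 and Tgfb2 at -0.00448, and with quantile normalization Tgfbr3 was at 0.00258. With a library left out Acvr2b ran from -0.1 to 0.0134, Bmpr1b from -0.122 to 0.0659, Gdf11 from -0.145 to 0.0105, Inhba from -0.163 to 0.0275, Ltbp1 from -0.0522 to 0.000101, Ltbp3 from -0.0562 to 0.128, Smad1 from -0.0269 to 0.164, Smad2 from -0.0655 to 0.0361 and Smad6 from -0.27 to 0.00606. Likewise Smad9 ran from -0.0353 to 0.0396, Smurf1 from -0.056 to 0.118, Tgfb1 from -0.141 to 0.0413, Tgfb2 from -0.0318 to 0.0217, Tgfb3 from -0.202 to 0.151 and Tgfbr3 from -0.079 to 0.0565. The cause of these shifts was not tested. No paired analysis was possible because the labels give no replicate numbers shared between the groups. With unknown depth, no floor for low values could be set.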
